A study of Mus musculus with 8 samples.

Results

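The genes described here are 39 genes of the cell cycle and of DNA replication, chosen by name: 14 genes of S phase and replication, 15 of G2 and mitosis, 4 cyclins and kinases of G1, and 6 inhibitors of the cyclin-dependent kinases (CDKs). Of these, 37 had at least 1 probe under their symbol on the array, out of 19057 genes with a named probe. A gene was tested where 1 of its probes was above background (detection p under 0.05) on at least 4 of the 8 arrays, and 27 members were among the 10724 genes tested. The study compared 2 sorted fractions of adipose progenitors, CD9high with 4 arrays and CD9low with 4 arrays, both from the epididymal white fat of lean C3H/HeOuJ mice aged 3 months, with CHOW in the sample titles. Both fractions were gated as negative for CD45 and CD31 and positive for Gp38 and PDGFRα, so they share every label except CD9. The labels name no treatment, no genetic change and no number of animals per sample, so the p-values below measure only the spread between these samples, which may be technical.

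A cell that divides first passes G1, where D-type cyclins with Cdk4 phosphorylate the retinoblastoma protein and so release E2F transcription factors. E2F factors then switch on the replication genes of S phase, and a later wave of mitosis genes follows under MuvB complexes with B-Myb and Foxm1. CDK inhibitors oppose these steps, and most fat progenitors in an adult depot are held in a resting state.

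Levels are given as normalized log2 signal intensity, on which 1 unit is a doubling, and a difference is CD9high minus CD9low on that log2 scale. Levels of different genes come from different probes and are not compared with each other. Cd9, the tetraspanin of the sort, was at 8.44 ± 0.14 in CD9high and 4.80 ± 0.52 in CD9low (SD, n = 4 each), a gap of 3.63 (SE 0.28, limma adjusted p = 0.000187), which fits the titles of the samples. The source field of the CD9low samples and the gate text name high CD9 for both fractions, and the titles and cell type labels were followed. The gate genes did not pass the test: Pdgfra differed by 0.10, Pdpn (Gp38) by -0.05, Ptprc (CD45) by -0.18 and Pecam1 (CD31) by -0.40. The arrays had 18618 to 23121 of 45281 probes above background, both ends in CD9low (replicates 2 and 3), and the median correlation of an array with the other arrays was 0.857 for CD9low replicate 2, 0.907 for CD9high replicate 2 and 0.940 to 0.954 for the other arrays. Replicates 1 to 3 of both fractions were on 1 slide and replicate 4 of both on another. These are bulk samples, in which fewer cells in a phase and less RNA per cell cannot be told apart.

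The S phase genes were mostly measurable in these cells and the mitosis genes mostly were not. Of the members with a probe, 12 of 14 S phase genes (85.7%), 6 of 13 mitosis genes (46.2%), 4 of 4 G1 genes and 5 of 6 inhibitors (83.3%) were above background on enough arrays to be tested, against 56.3% of all named genes. Mki67 and Ccnb1, both used as marks of cycling cells, had no probe under their symbol. Ccne1 and Ccne2, the E-type cyclins of S phase entry, Ccnb2, a cyclin of mitosis, and Bub1, a kinase of the spindle checkpoint, were not above background on any array.

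The remaining members that were not tested were above background on a few arrays each. Top2a, the topoisomerase that untangles chromosomes, was above background on 1 array, and so was Cdkn2a, which encodes p16 and p19Arf; both times it was CD9high replicate 4. Aurkb, the kinase of the chromosomal passenger complex, was above background on CD9high replicates 1 and 4, and Ube2c, which hands ubiquitin to the anaphase-promoting complex, on replicate 4 of both fractions. Bub1b, a checkpoint kinase, was above background on CD9high replicates 1 and 4 and on CD9low replicate 3. Birc5 (survivin), the partner of Aurkb, reached 4 arrays only when its probes were counted together, CD9high replicates 1, 3 and 4 and CD9low replicate 1.

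Birc5 and Aurkb, which work in the same complex, are given array by array, without a test. The brightest Birc5 probe was at 5.37, 4.54, 4.72 and 6.53 on the CD9high arrays (replicates 1 to 4, the order used throughout) and at 4.46, 4.61, 4.35 and 4.71 on the CD9low arrays. It was above background on 3 CD9high arrays and on 0 CD9low arrays. Aurkb was at 4.79, 4.49, 4.55 and 6.05 in CD9high and at 4.32, 4.31, 4.45 and 4.35 in CD9low, where it was not well above background. In both genes CD9high replicate 4 stood highest and CD9high replicate 1 next.

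**Figure D1:**
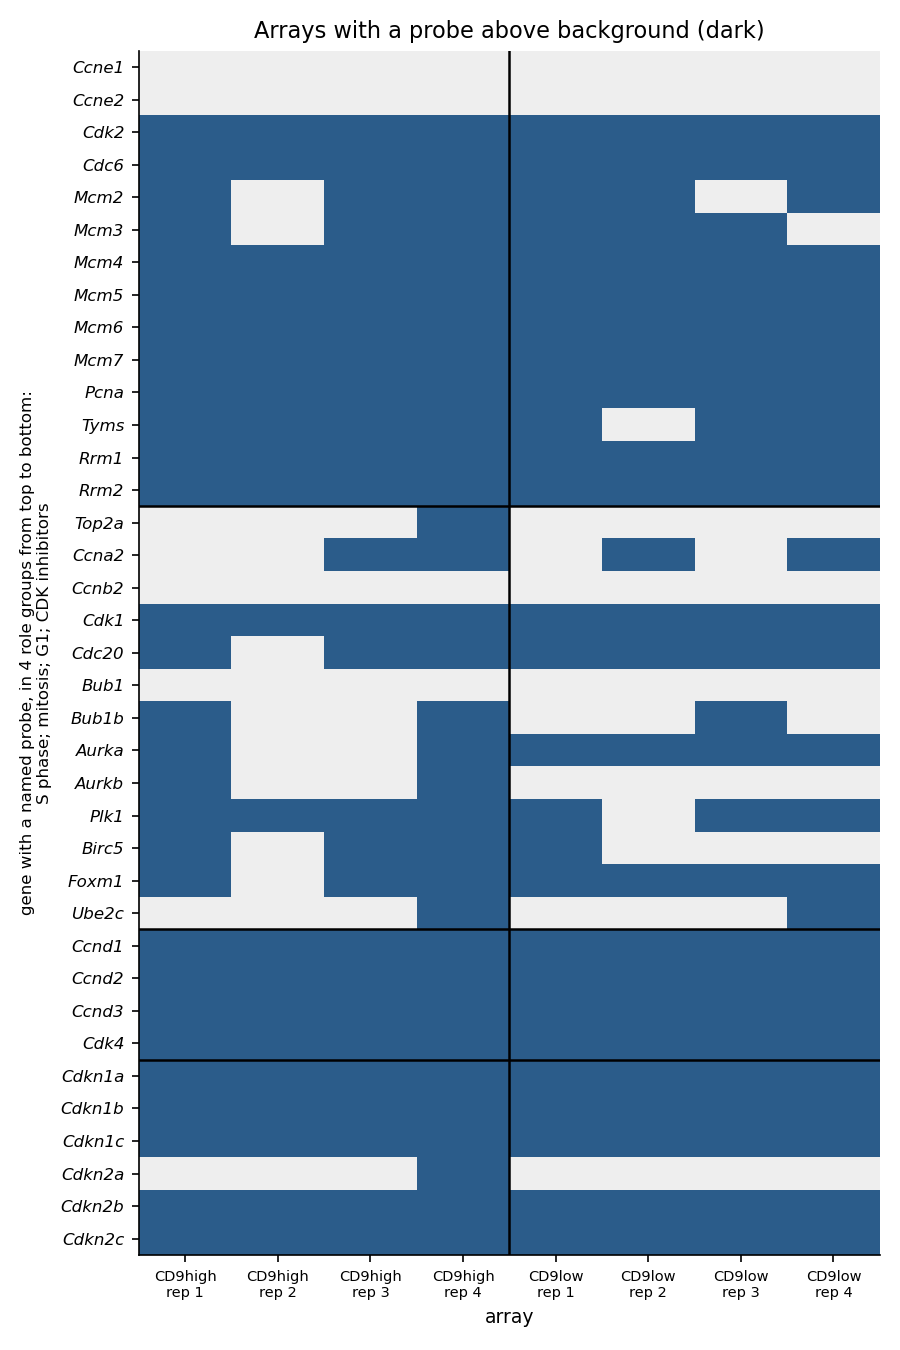
Map of detection for the 37 members with a probe (rows, by role) on the 8 arrays (columns, CD9high left of CD9low). A dark cell means that at least 1 probe of the gene was above background, detection p under 0.05. The S phase rows are dark on nearly every array, with 10 to 12 of 14 genes detected, while mitosis genes run from 2 of 13 on CD9high replicate 2 to 11 of 13 on CD9high replicate 4.

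None of the 27 tested members passed the test between the fractions. With limma and Benjamini-Hochberg adjustment over all 10724 genes, 0 of 27 had an adjusted p under 0.05, against 1.69% of all genes (181). By direction, 1.13% of all genes were higher (121) and 0.559% lower (60) in CD9high. At an unadjusted p under 0.05 there were 3 members, Rrm2 with a higher and Cdkn2b and Cdkn1c with a lower CD9high mean, which is 11.1% of the members against 10.7% of all genes. The fractions did not overlap for 1 member (3.70%), Rrm2, against 7.69% of all genes (3.92% with CD9high above and 3.78% with CD9high below). These shares lie near or below those of all genes.

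The members' differences lay above 0 more often than below, at 19 of 27, while 45.6% of all genes lay above 0. Their median was 0.17 on the log2 scale, beside -0.04 for all genes. By role the median was 0.22 for S phase, 0.13 for mitosis, 0.15 for G1 and 0.17 for the inhibitors. On the slide with replicates 1 to 3 these medians were 0.18, -0.07, 0.20 and -0.05, and on the slide with replicate 4 they were 0.42, 1.15, -0.02 and 0.32, so only the S phase median kept its sign on both slides. The 95% confidence intervals of single members, not adjusted for the number of genes, reached 0.50 to 1.32 to either side. Differences smaller than that could not be shown with 8 arrays. Larger ones could still miss the adjusted test, as Rrm2 did at 1.47 (limma adjusted p = 0.0961).

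**Figure D2:**
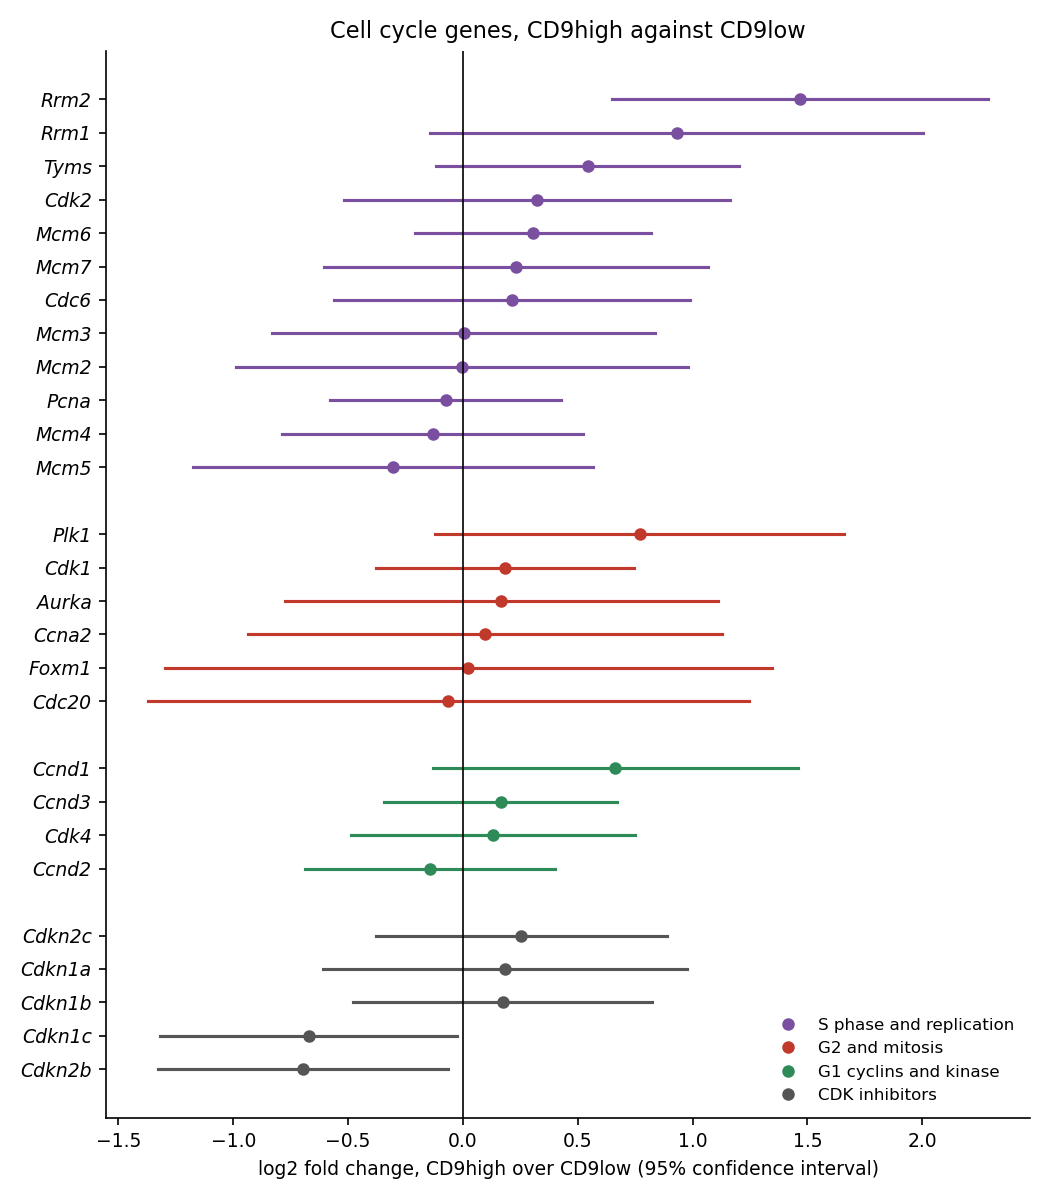
Difference between CD9high and CD9low (log2, CD9high minus CD9low) for each of the 27 tested members, grouped by role, with its 95% confidence interval from limma. Only the intervals of Rrm2, on the right of 0, and of Cdkn2b and Cdkn1c, on the left, leave out 0, and none of these 3 genes passes after adjustment.

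Among the S phase genes, Rrm2 had the highest difference of any member. Rrm2 is the small subunit of ribonucleotide reductase, which makes the deoxynucleotides for DNA synthesis and is present mainly in S phase. Its level was 6.89, 7.87, 7.05 and 8.13 in CD9high, against 5.73, 6.83, 5.46 and 6.04 in CD9low. Every CD9high array was above every CD9low array, although CD9high replicate 1 and CD9low replicate 2 lay close together. The means were 7.48 ± 0.61 and 6.02 ± 0.59 for CD9high and CD9low (SD, n = 4 each), a difference of 1.47 (SE 0.37, 95% interval 0.65 to 2.29), or 2.77-fold with an interval of 1.57 to 4.88. The limma p was 0.0024 and the adjusted p 0.0961, rank 264 among all genes. The exact two-sided permutation test of 4 against 4 arrays gave p = 0.0286, the smallest it can give. Every gene without overlap gives this value, so it adds nothing to the lack of overlap, which 7.69% of all genes share. The difference was 1.26 on the first slide and 2.09 on the second.

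A second Rrm2 probe above background gave 6.82, 8.35, 7.38 and 8.05 in CD9high and 5.74, 6.41, 5.78 and 5.44 in CD9low. Its difference was 1.80 (SE 0.35), again with no overlap. When every probe was tested on its own, an alternative chosen after seeing the data, this probe passed with a limma adjusted p of 0.0358, while the brighter probe had 0.103, and 1.22% of all probes passed. It was the single one of 51 tested member probes to do so. A further Rrm2 probe was not above background on any array.

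The promoter of Rrm2 is shown because Rrm2 had the smallest p of the S phase genes. It covers chr12:24708004-24708253 on the plus strand of GRCm38.p6, the 250 bases before the start of the gene in RefSeq, and the capitals mark a CCAAT box 50 to 46 bases before the start.
Rrm2: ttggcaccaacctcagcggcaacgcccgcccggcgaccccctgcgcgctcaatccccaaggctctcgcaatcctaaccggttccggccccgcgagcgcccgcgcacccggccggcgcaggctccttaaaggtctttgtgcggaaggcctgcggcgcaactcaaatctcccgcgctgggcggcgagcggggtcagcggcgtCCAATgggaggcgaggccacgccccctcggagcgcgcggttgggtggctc
These 3 motifs of cell cycle promoters were searched on both strands of such windows: an E2F site (spelled as TTCCCGC, in another form as TTGGCGC and in a further form as TTCGCGC), the CHR element (TTTGAA) and the CCAAT box (CCAAT). No overlap between motifs was removed. Of the 12 S phase genes with a window, 6 held an E2F site, 1 a CHR and 9 a CCAAT box. Of all 27025 genes with a window, 7.68%, 18.3% and 37.5% held them. A gene was counted where any of its windows held the motif. The window of Rrm2 holds the CCAAT box alone of the 3 motifs as spelled here.

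The partner of Rrm2 and the thymidylate enzyme had CD9high means above CD9low but overlapped. Rrm1, the large subunit of ribonucleotide reductase, was at 8.43, 8.24, 8.55 and 8.18 in CD9high, against 8.05, 5.69, 8.26 and 7.67 in CD9low. The CD9high arrays lay close together and CD9low replicate 2 lay far below the rest. Its difference was 0.93 (SE 0.49, limma adjusted p = 0.546), and 0.36 without CD9low replicate 2. Tyms, which makes thymidylate, was at 6.19, 5.60, 5.63 and 5.84 in CD9high and 5.95, 4.65, 5.43 and 5.05 in CD9low. Its difference was 0.54 (SE 0.30, adjusted p = 0.570), and its probes above background disagreed in sign.

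The helicase and clamp genes showed no common direction. Mcm6, a subunit of the MCM helicase that opens DNA at origins, was at 9.60, 9.62, 9.71 and 10.06 in CD9high, against 9.05, 9.42, 9.54 and 9.75 in CD9low, which differ by 0.31 (SE 0.23, limma adjusted p = 0.700). The fractions overlapped between 9.60 and 9.75. The other helicase subunits differed by 0.23 (Mcm7), 0.0029 (Mcm3), -0.0036 (Mcm2), -0.13 (Mcm4) and -0.31 (Mcm5). Cdk2, the kinase of S phase entry, differed by 0.32, Cdc6, which loads the helicase onto origins, by 0.21, and Pcna, the sliding clamp of the polymerases, by -0.07. These 8 genes had limma adjusted p-values of 0.807 to 0.998. In means, Mcm7 was at 6.69 ± 0.48 in CD9high and 6.46 ± 0.73 in CD9low, Mcm5 at 7.81 ± 0.80 in CD9high and 8.11 ± 0.45 in CD9low, and Pcna at 7.73 ± 0.32 in CD9high and 7.80 ± 0.12 in CD9low (SD, n = 4 each). Mcm2 averaged 5.41 in both fractions, and Mcm3 averaged 5.22 in both. Mcm4 was at 8.97 ± 0.46 in CD9high and 9.11 ± 0.40 in CD9low, Cdk2 at 8.90 ± 0.64 in CD9high and 8.57 ± 0.60 in CD9low, and Cdc6 at 5.61 ± 0.75 in CD9high and 5.40 ± 0.25 in CD9low. The fractions overlapped in each of these 8 genes.

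**Figure D3:**
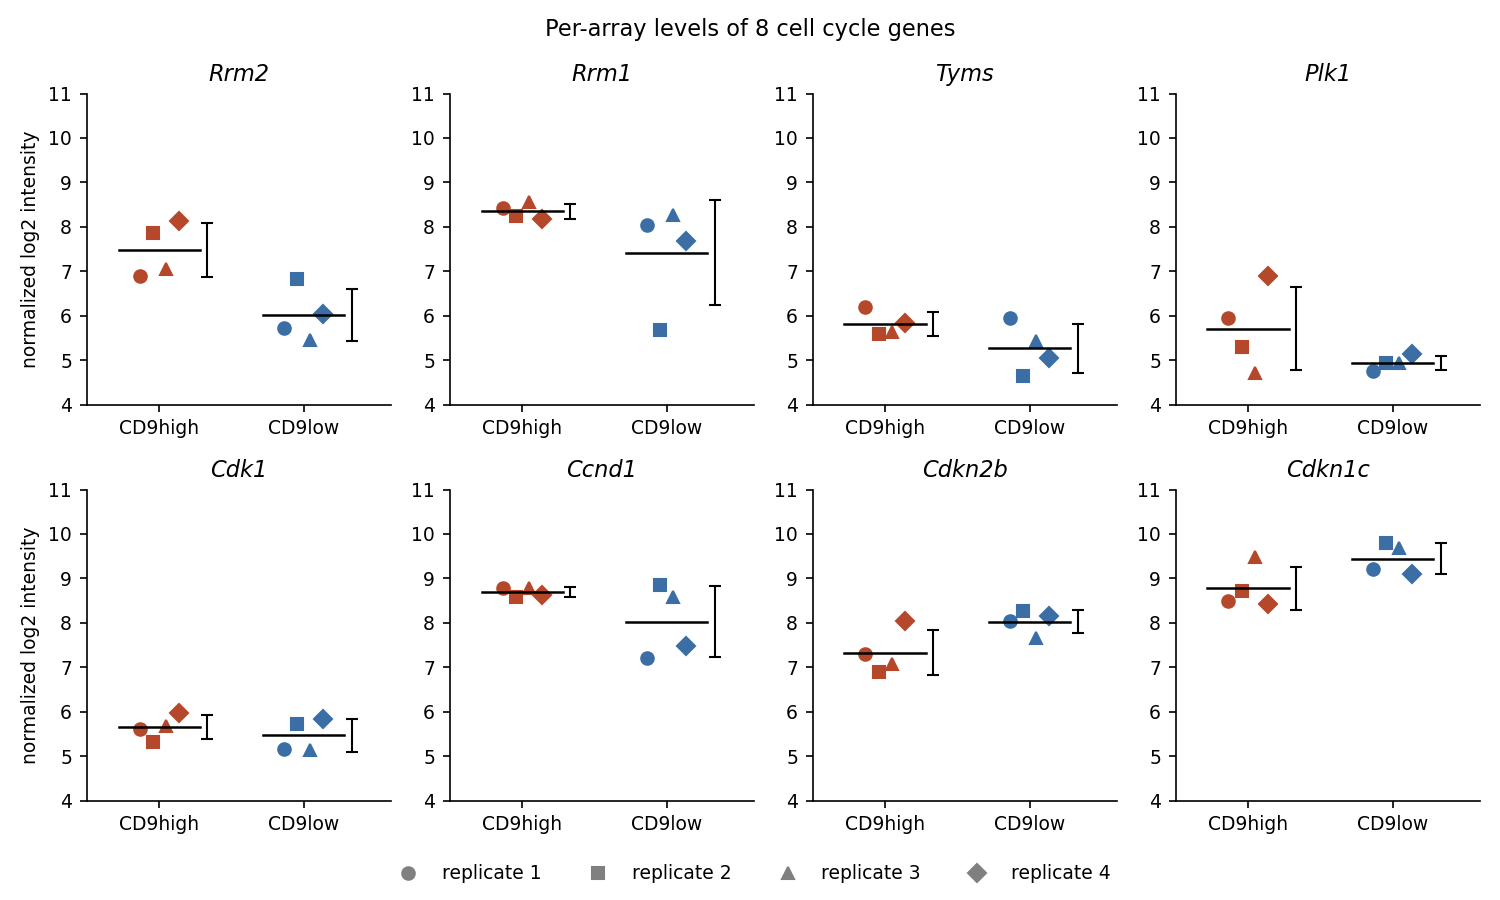
Normalized log2 signal intensity of 8 members on each array, CD9high left and CD9low right in each panel, with a line at the mean and a bar of 1 SD (n = 4 each). Rrm2 is the single panel in which the fractions do not overlap; in Rrm1 the array CD9low replicate 2 (5.69) and in Plk1 the array CD9high replicate 4 (6.89) lie farthest from the mean of their fraction.

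In the mean of the mitosis genes 1 array, CD9high replicate 4, stood above the other 7. CD9low replicate 4, on the same slide, came next. Plk1, the polo-like kinase that drives entry into mitosis, was at 5.94, 5.30, 4.71 and 6.89 in CD9high, against 4.76, 4.94, 4.93 and 5.14 in CD9low. The CD9low arrays lay close together, and the CD9high arrays spread on both sides of them. The lowest level counted as above background was 4.61 to 5.01 by array, so the CD9low values lay near that limit. Plk1 was above background on 4 CD9high and 3 CD9low arrays. The means were 5.71 ± 0.94 in CD9high and 4.94 ± 0.16 in CD9low (SD, n = 4 each), which differ by 0.77 (SE 0.40, limma adjusted p = 0.546). The difference was 0.37 without CD9high replicate 4. It was 0.44 on the first slide and 1.75 on the second.

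The promoter of Plk1, the mitosis gene with the smallest p, covers chr7:122159185-122159434 on the plus strand of GRCm38.p6 (RefSeq), with capitals at a CCAAT box 14 to 10 bases before the start.
Plk1: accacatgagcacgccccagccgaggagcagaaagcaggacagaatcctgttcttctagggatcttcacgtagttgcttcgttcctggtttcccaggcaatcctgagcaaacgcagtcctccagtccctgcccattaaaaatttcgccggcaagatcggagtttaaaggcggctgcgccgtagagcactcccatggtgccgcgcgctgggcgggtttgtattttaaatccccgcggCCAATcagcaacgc
Of the 12 mitosis genes with a window, 3 held an E2F site, 6 a CHR and 11 a CCAAT box. The windows of Rrm2 and Plk1 each carry a CCAAT box, as do those of 37.5% of all genes with a window.

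The other mitosis genes overlapped widely. Cdk1, the kinase of mitotic entry, was at 5.61, 5.32, 5.68 and 5.98 in CD9high and 5.16, 5.72, 5.14 and 5.84 in CD9low, which differ by 0.18 (SE 0.25). Aurka, a kinase of the spindle poles, was at 5.39, 4.74, 4.51 and 6.55 in CD9high and 4.79, 5.47, 4.71 and 5.55 in CD9low, which differ by 0.17 (SE 0.43). Ccna2, the A-type cyclin of S phase and G2, was at 4.58, 4.40, 4.73 and 6.42 in CD9high and 4.42, 5.77, 4.44 and 5.12 in CD9low, which differ by 0.10 (SE 0.47). In these 3 genes the top value was on CD9high replicate 4 and no separation of the fractions was seen. Aurka was above background on 2 CD9high and 4 CD9low arrays and Ccna2 on 2 arrays of each fraction, so part of their values lay near background.

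The last 2 mitosis members had the widest spread. Cdc20, an activator of the anaphase-promoting complex, was at 5.41, 4.35, 5.77 and 7.43 in CD9high and 6.47, 6.08, 4.70 and 5.95 in CD9low, which differ by -0.06 with a 95% interval of -1.37 to 1.24. Foxm1, the transcription factor of mitosis genes, was at 6.75, 4.71, 6.23 and 7.76 in CD9high and 6.05, 5.95, 5.81 and 7.55 in CD9low, which differ by 0.02 with an interval of -1.30 to 1.35. In both genes CD9high held the highest and the lowest array of all 8. Such intervals hold more than a doubling in either direction.

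S phase and mitosis genes were set against each other on every array. For each array, the mean of the 12 S phase members and of the 6 mitosis members was taken as a deviation from the mean over all 8 arrays, in log2 units. The S phase mean deviated by -0.11, 0.22, -0.04 and 0.52 in CD9high, against -0.20, -0.09, -0.29 and -0.01 in CD9low. CD9high replicates 2 and 4 were highest, and replicates 1 and 3 lay within the CD9low range. The mitosis mean deviated by 0.08, -0.73, -0.26 and 1.31 in CD9high, against -0.26, 0.12, -0.58 and 0.32 in CD9low. CD9high held both ends here. Both means were highest on CD9high replicate 4, while CD9high replicate 2 had the next highest S phase mean and the lowest mitosis mean. The next highest mitosis mean, 0.32, was on CD9low replicate 4, from the same slide as CD9high replicate 4.

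Among the members, CD9high replicates 2 and 4 were at opposite ends of S phase minus mitosis. Replicate 2 had S phase genes 0.95 above mitosis genes, and only 2 of 13 mitosis genes were above background on it. Replicate 4 had S phase genes 0.79 below mitosis genes (a difference of -0.79), and 11 of 13 mitosis genes were above background on it. The other arrays lay between, with S phase minus mitosis at -0.20 and 0.22 on CD9high replicates 1 and 3 and at 0.06, -0.21, 0.29 and -0.34 on the CD9low arrays. By fraction, S phase minus mitosis averaged 0.05 ± 0.73 in CD9high and -0.05 ± 0.28 in CD9low (SD, n = 4 each). The difference of 0.10 is smaller than either SD and was 0.37 without CD9high replicate 4. For other replication and mitosis genes, none of them members, the same measure averaged -0.21 ± 0.29 in CD9high and 0.21 ± 0.32 in CD9low (SD, n = 4 each). That difference of -0.41 has the opposite sign and exceeds either SD, and it was -0.28 without CD9high replicate 4. Neither difference was tested. In these other genes CD9high replicate 2 was at -0.26, of opposite sign to its value in the members, and CD9high replicate 4 at -0.60. On CD9high replicate 2, 20 of 50 other mitosis genes were above background.

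CD9high replicate 4 was the highest of all 8 arrays for 6 of 6 mitosis members and 6 of 12 S phase members, against 9.16% of all genes tested. Without it, the mitosis mean of CD9high was -0.30 instead of 0.10. Its share of named genes above background, 57.3%, lay inside the range of all arrays, 52.5% to 59.6%. That array was also the highest for 15 of 26 other mitosis genes. The mean deviation of these other mitosis genes was 0.86 on it and next highest, 0.17, on CD9low replicate 4. Of 30 other replication genes, CD9high replicate 4 was the highest for 4, near the share of all genes, while CD9low replicate 2 was the highest for 15. The share of all genes was not computed for CD9low replicate 2, which had the lowest median correlation with the other arrays (0.857). Its count is therefore not read as a trait of replication genes. CD9high replicate 4 had 42 of 50 other mitosis genes above background, against 18 to 27 on the other arrays.

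**Figure D4:**
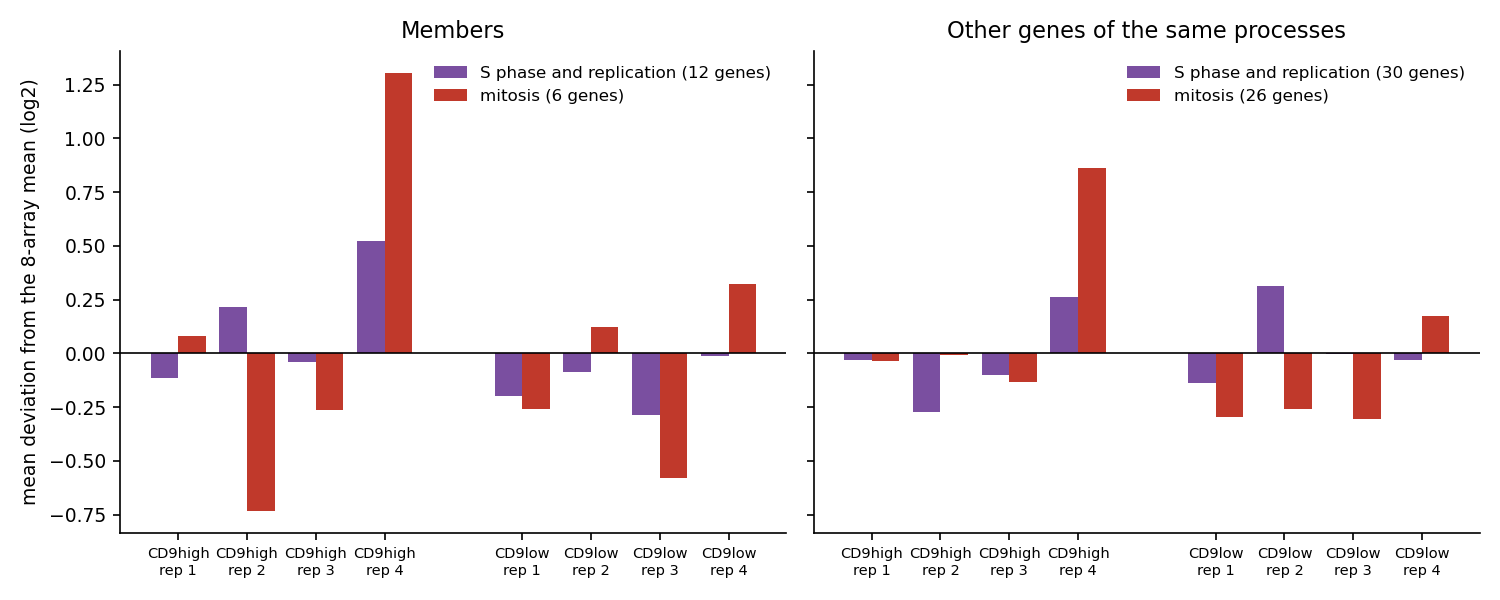
Mean deviation of S phase and mitosis genes on each array from their mean over all 8 arrays (log2 units), for the members and for the other replication and mitosis genes, CD9high arrays left of CD9low arrays. CD9high replicate 4 has the highest mitosis mean (1.31), CD9high replicate 2 the lowest (-0.73), and the S phase means stay between -0.29 and 0.52.

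The 4 genes of G1 were above background on all 8 arrays. Ccnd1, cyclin D1, which couples growth signals to Cdk4, was at 8.79, 8.58, 8.78 and 8.63 in CD9high, against 7.21, 8.85, 8.58 and 7.48 in CD9low. The CD9high arrays were nearly equal, and the CD9low arrays split into a low and a high pair around them. The means were 8.69 ± 0.10 in CD9high and 8.03 ± 0.81 in CD9low (SD, n = 4 each), which differ by 0.66 (SE 0.36, limma adjusted p = 0.562).

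The other G1 genes differed by less. Ccnd3, cyclin D3, was at 10.68, 10.50, 10.37 and 10.82 in CD9high and 10.14, 10.75, 10.23 and 10.58 in CD9low, which differ by 0.16. Ccnd2, cyclin D2, was at 9.06, 8.71, 8.91 and 8.30 in CD9high and 9.08, 8.50, 9.02 and 8.96 in CD9low, which differ by -0.14. Cdk4, the kinase bound by D-type cyclins, was at 8.22, 7.96, 8.05 and 7.18 in CD9high and 7.78, 7.51, 8.13 and 7.47 in CD9low, which differ by 0.13. In all 4 genes the ranges of the fractions overlapped. Of the 2 G1 genes with a promoter window, 0 held an E2F site or a CHR and 1 held a CCAAT box.

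None of the 5 inhibitors tested passed. Cdkn2b (p15), which blocks Cdk4 and is a known target of TGF-beta signalling, was at 7.29, 6.90, 7.08 and 8.05 in CD9high, against 8.04, 8.27, 7.66 and 8.15 in CD9low. CD9high replicates 1 to 3 were below all CD9low arrays, and CD9high replicate 4 lay within their range. The means were 7.33 ± 0.51 in CD9high and 8.03 ± 0.26 in CD9low (SD, n = 4 each), which differ by -0.70 (SE 0.29, 95% interval -1.33 to -0.07). The limma p was 0.0333 and the adjusted p 0.409, and the exact two-sided permutation test gave p = 0.0857. The difference was -0.90 on the first slide and -0.10 on the second, and it was -0.94 without CD9high replicate 4 (limma adjusted p = 0.150).

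Cdkn2b had the smallest p of the inhibitors. Its promoter covers chr4:89311033-89311282 on the minus strand of GRCm38.p6 (RefSeq), and the capitals mark a CHR motif read on the opposite strand, 161 to 156 bases before the start.
Cdkn2b: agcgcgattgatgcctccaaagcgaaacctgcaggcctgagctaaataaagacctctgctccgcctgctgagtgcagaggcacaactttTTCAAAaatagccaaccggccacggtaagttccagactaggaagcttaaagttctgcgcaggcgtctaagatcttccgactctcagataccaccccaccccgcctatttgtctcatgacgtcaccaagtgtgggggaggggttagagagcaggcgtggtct
Of the 5 inhibitors with a window, 2 held an E2F site, 1 a CHR and 1 a CCAAT box. Over the 31 members with a window, 11 held an E2F site, 8 a CHR and 22 a CCAAT box.

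Cdkn1c (p57), an inhibitor linked to resting stem and progenitor cells, was at 8.48, 8.72, 9.48 and 8.42 in CD9high, against 9.20, 9.80, 9.67 and 9.11 in CD9low. CD9high replicate 3 lay among the CD9low arrays and the other CD9high arrays below them. The means were 8.77 ± 0.49 in CD9high and 9.45 ± 0.34 in CD9low (SD, n = 4 each), which differ by -0.67 (SE 0.29, 95% interval -1.32 to -0.03). The limma p was 0.0430 and the adjusted p 0.442, and the exact two-sided permutation test gave p = 0.0857. The difference was -0.66 on the first slide and -0.69 on the second.

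The remaining inhibitors overlapped between the fractions. Cdkn2c (p18), of the same family as Cdkn2b, was at 6.06, 6.07, 6.21 and 6.96 in CD9high and 5.93, 6.64, 5.91 and 5.81 in CD9low, which differ by 0.25. Cdkn1b (p27), which holds cells at the end of G1, was at 9.48, 9.11, 9.70 and 9.12 in CD9high and 9.61, 8.65, 9.66 and 8.80 in CD9low, which differ by 0.17. Its dimmer probes, tested on their own, differed by 0.83 and 0.56 (limma adjusted p = 0.489 and 0.549). Cdkn1a (p21), the inhibitor induced by p53, averaged 8.03 ± 0.65 in CD9high and 7.85 ± 0.49 in CD9low, which differ by 0.18. Probes of the same gene did not always point the same way: of 15 members with several probes above background, 9 had probes of one sign, and Cdc20, Cdk2, Cdkn1a, Mcm4, Mcm6 and Tyms had probes of both signs.

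Neighbouring pathways were read from 5 further lists, beside which 1.69% of all genes passed and 10.7% had an unadjusted p under 0.05. Of 30 other replication genes tested, 0 passed in limma and 2 had an unadjusted p under 0.05, and their median difference was -0.16. They were Lig1, the ligase that joins Okazaki fragments, with a difference of 1.07 (SE 0.30, adjusted p = 0.149) and no overlap, and Orc4, a subunit of the origin recognition complex, with -0.57 (SE 0.22, adjusted p = 0.375). Of 26 other mitosis genes, 0 passed, 2 had an unadjusted p under 0.05, and the median was 0.27. Of these 26, 21 lay above 0, against 45.6% of all genes. Their mean difference was 0.34, and 0.11 without CD9high replicate 4. Ndc80, the kinetochore protein that holds microtubules, was above background on all 4 CD9high arrays and no CD9low array, at least 1.66-fold higher in CD9high (limma adjusted p = 0.122). It met the detection filter only through CD9high, so its p and its place in these counts carry no weight. Prc1, which bundles microtubules of the central spindle, differed by 1.37 (SE 0.48, adjusted p = 0.306).

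Among the p53 targets 1 gene passed. Eda2r, a receptor for ectodysplasin A2 and a p53 target, rose in CD9high. Its level was 6.39, 6.92, 6.45 and 5.88 in CD9high, against 5.25, 4.81, 5.31 and 5.31 in CD9low, with every CD9high array above every CD9low array. The difference was 1.24 (SE 0.26, limma adjusted p = 0.0460), and the call was lost in 19 of 22 alternatives, with adjusted p-values of 0.0524 to 0.302 there. Of 17 p53 targets tested it was the only one to pass, 2 had an unadjusted p under 0.05, and the median of the list was 0.12. In 4 of the 17 the fractions did not overlap, each with CD9high above, against 3.92% of all genes. The list was chosen with earlier results of these data known, so this share carries no weight as a test. Eda2r was above background on 4 CD9high and 3 CD9low arrays, and its CD9low values lay near background. Cdkn1a, the member induced by p53, overlapped between the fractions and had probes of both signs.

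The other regulators did not pass. Of 16 genes of the Rb, E2F and DREAM group, 0 passed in limma and 1 had an unadjusted p under 0.05, with a median of -0.09. That gene was Rb1, the retinoblastoma protein, at -0.62 (SE 0.23, adjusted p = 0.331), and E2f1, the E2F factor that drives S phase entry, differed by 0.74 (SE 0.42, adjusted p = 0.594). Of 17 genes of quiescence and cell cycle exit, 0 passed and 1 had an unadjusted p under 0.05, with a median of 0.01. That gene was Gas1, a membrane protein first found in growth-arrested fibroblasts, at 0.56 (SE 0.21, adjusted p = 0.353), and Btg1, an antiproliferative gene, differed by -0.50 (SE 0.23, adjusted p = 0.481).

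Markers of other cells were measured on the same arrays, and 0 of them passed in any list. On CD9high replicate 4, the array with the highest mitosis genes, the mean level of 11 leukocyte markers was 5.63, the lowest of CD9high (5.63 to 7.54, against 5.38 to 7.81 in CD9low). In CD9low, Lyz2 (6.78), Laptm5 (6.96), Tyrobp (6.92), Ptprc (4.26), Csf1r, Cd74, Cd52 and Adgre1 were each lowest on replicate 4, on the same slide. The other leukocyte markers are not given by array here. On CD9high replicate 4, the 10 endothelial markers (6.73), 10 pericyte and smooth muscle markers (6.81) and 6 adipocyte markers (5.41) were also at the low end of CD9high. The mean of the 4 mesothelial markers measured of 11 was highest there, 6.52, within 5.78 to 6.52 in CD9high and against 5.31 to 6.01 in CD9low. Of these 4, only Msln was itself highest on that array (6.04). Gpm6a was highest on CD9high replicate 2 (8.72), Upk3b on CD9high replicate 1 (7.18) and Krt8 on CD9low replicate 4 (4.92). The 14 genes of the response to tissue dissociation were at a mean of 10.14 on CD9high replicate 4, also the top of CD9high (9.08 to 10.14, against 9.34 to 10.22 in CD9low). So were the 5 erythroid markers, at 8.84 (8.47 to 8.84 in CD9high, against 8.74 to 9.30 in CD9low). Their part in the level of the mitosis genes was not tested.

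Between the fractions, the median difference was -0.14 for leukocyte markers, -0.41 for endothelial, -0.33 for pericyte, -0.19 for adipocyte, -0.66 for 5 erythroid and 0.27 for mesothelial markers. Of the endothelial list, Plvap, a protein of fenestrated capillaries, differed by -1.55 (SE 0.37, limma adjusted p = 0.0802), with every CD9high array below every CD9low array. The unadjusted limma p was under 0.05 for 10.7% of all genes. Among the markers it was under 0.05 for 0 of 11 leukocyte, 2 of 10 endothelial and 1 of 10 pericyte genes. The counts were 0 of 6 for adipocyte, 3 of 5 for erythroid and 1 of 4 for mesothelial markers. The 9 progenitor markers had means of 10.38 to 10.77 in CD9high and 10.47 to 10.70 in CD9low. The part of these markers in the differences of Rrm2, Cdkn2b and Cdkn1c was not tested.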

How the data were processed

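RNA of sorted progenitors, amplified before labelling with Ovation Pico and Encore BiotinIL kits per the labels' protocols, was hybridised to Illumina mouse bead arrays. The authors deposited signal intensity per probe without normalization, with a detection p-value per probe and array, per the file headers; the submitters' processing notes list GenomeStudio, with no version in the sources used here. The deposited value table served as an alternative. Amplification can distort ratios of dim transcripts.

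Intensities were corrected by normexp (offset 16), quantile-normalized and set to log2 with limma 3.58.1 (neqc) in R 4.3.3, with control beads inferred from the detection p-values (936 beads). Of 45281 probes, 34885 had 1 gene symbol, 18 several and 10378 none in the platform annotation. The probe with the highest mean stood for a gene. Fractions were compared by lmFit and eBayes with Benjamini-Hochberg adjustment at 0.05; scripts were tested on simulated data. Precision rests on having 8 arrays.

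The members and lists were chosen with earlier results of these data known. Values are given on every array for the 4 smallest p-values per role and for Cdc20 and Foxm1, added after their values were seen; pathway lists are named by genes that passed or the 2 smallest p-values. Plvap was chosen after its values were seen. Normalization, filters, probe choice, slide, replicate block and left-out arrays were varied.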

Additional observations from a re-analysis of the deposited data

Results flagged for a closer look

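In 6 of 56 groups of 4 arrays (the tested members and Eda2r, each fraction on its own), 1 array lay far from the other 3 by Dixon's criterion, which flags about 1 in 20 groups by chance. In CD9high, replicate 4 was the far array for Ccna2, at 6.42 with the others at 4.40 to 4.73, and for Cdkn2c, at 6.96 with the others at 6.06 to 6.21. In CD9low, replicate 2 was the far array for Mcm3, at 6.38 with the others at 4.75 to 4.97, for Cdkn2c, at 6.64 with the others at 5.81 to 5.93, and for Eda2r, at 4.81 with the others at 5.25 to 5.31. Foxm1 had its far array in CD9low replicate 4, at 7.55 with the others at 5.81 to 6.05.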

How the results depend on the processing

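Of 27 tested members, 13 kept the sign of their difference in every one of the 23 alternative settings that held a value for them (Cdk2, Mcm5, Mcm6, Tyms, Rrm1, Rrm2, Cdk1, Plk1, Ccnd1, Ccnd3, Cdk4, Cdkn1c and Cdkn2b). Tyms and Plk1 had a value in 22 of these settings. The other 14 members changed sign in some, for 62 of the 612 values of all members. In several of these settings the sign could not change, so these counts overstate stability. The slide and replicate blocks leave the difference as it is in this balanced design. The detection filters do so wherever the same probe is kept. The first slide alone holds the same arrays as leaving out replicate 4 of both fractions. The count of members past the test, 0, became 1 (Rrm2) with an offset of 50 (adjusted p = 0.0425), with the mean of a gene's probes (0.0379), without CD9low replicate 2 (0.0274), without replicate 2 of both fractions (0.0439) and with each probe on its own (0.0358, added after seeing the data); leaving out arrays gave 0 to 1. Over the 23 settings the adjusted p of Rrm2 ran from 0.0274 to 0.415 and its difference from 1.25 to 1.74. The count of all genes, 181, fell to 48 on the first slide alone and ran from 19 to 270 when arrays were left out. It was 54, 72 and 116 without CD9high replicate 1, 3 or 4, and 75, 81 and 76 without CD9low replicate 1, 3 or 4. The single call in the other pathway lists, Eda2r, gave way to 0 without background correction, with median centring, the offset of 50, the authors' table, no detection filter, detection on all 8 arrays, the slide as a block or the first slide alone, and to 0 to 1 when arrays were left out. The cause of these changes was not tested.

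The median of the inhibitors ran from -0.11, without CD9high replicate 4, to 0.27 when arrays were left out, and was -0.041 with the mean of probes. With arrays left out, the medians of S phase and of G1 kept their sign (0.11 to 0.36 and 0.03 to 0.22), while that of mitosis ran from -0.31, without CD9high replicate 4, to 0.48, and the difference in S phase minus mitosis from -0.26 to 0.37.

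Signs turned in these settings. Mcm2 became 0.058 without background correction, 0.063 in the authors' table and 0.16 with median centring, which also gave Pcna 0.0075 and Cdc20 0.13. The offset of 50 gave Mcm3 -0.028 and Cdc20 0.020, and the mean of probes gave Mcm4 0.28, Cdc20 0.36 and Cdkn1a -0.041. The first slide alone gave Mcm3 -0.32, Ccna2 -0.31, Aurka -0.11, Foxm1 -0.038, Ccnd2 0.031 and Cdkn2c -0.046. With arrays left out the ranges were -0.15 to 0.41 for Cdc6, -0.42 to 0.33 for Mcm2, -0.32 to 0.53 for Mcm3, -0.27 to 0.087 for Mcm4, -0.13 to 0.49 for Mcm7, -0.19 to 0.057 for Pcna, -0.63 to 0.49 for Cdc20, -0.44 to 0.57 for Foxm1, -0.37 to 0.58 for Ccna2, -0.25 to 0.47 for Aurka, -0.27 to 0.031 for Ccnd2, -0.11 to 0.40 for Cdkn1a, -0.0027 to 0.33 for Cdkn1b and -0.046 to 0.53 for Cdkn2c.

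Both fractions carry replicate numbers 1 to 4. The deviations of same-numbered arrays correlated at 0.223, -0.0996, 0.183 and 0.160, so the numbers were not taken to pair the samples, and 5 of 8 arrays correlated best with their own number. With the replicate block 76 genes passed (56 higher and 20 lower), 0 members and 0 genes of the other pathway lists among them, and Rrm2 had an adjusted p of 0.0703.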
